A study of Mus with 4 samples.

Results

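The atypical protein kinase C (aPKC) and PAR polarity genes were examined as 10 genes taken by symbol: Prkci, Prkcz, Pard3, Pard3b, Pard6a, Pard6b, Pard6g, Llgl1, Llgl2 and Crb3. They are 10 of 26893 gene symbols on the array, and every probe that it carries for them was followed, 26 of 56605. The cells were an immortalized murine podocyte cell line that had been differentiated for 10 to 14 days without interferon-γ. In the Venus group, 2 samples received a lentivirus for the fluorescent protein Venus as the control. In the OASIS group, 2 samples received one for the active N-terminal part of OASIS, a transcription factor encoded by Creb3l1 that is normally released from the endoplasmic reticulum membrane by cleavage. Both groups were exposed to vector for 24 h at a multiplicity of infection of 200 to 500 with 8 µg/mL polybrene, and total RNA was taken 48 h after the vector was added. The groups model OASIS given by vector at high multiplicity, in 1 cell line.

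These genes encode the machinery that sets the apical side of an epithelial cell apart from its basolateral side. PAR-6, an adaptor, binds an atypical PKC and GTP-bound Cdc42, and PAR-3, a scaffold with PDZ domains, brings this pair to tight junctions. At the apical membrane the complex meets Crumbs proteins, while Lgl proteins act on the basolateral side and are excluded from the apical cortex when aPKC phosphorylates them. In podocytes, PAR-3, PAR-6 and aPKC are found with nephrin at the slit diaphragm, and loss of Prkci from podocytes leads to foot process effacement and proteinuria.

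There was 1 single-colour array per sample, and all 4 were on the same slide and scanned together. Of 59305 spots that are not controls, between 33938 and 34418 were well above background on an array, and 0 were saturated. Across tested probes the arrays correlated at 0.997 within the Venus group, 0.995 within the OASIS group and 0.973 to 0.978 between groups. The defining podocyte gene Nphs1 was at or near background, since 1 of its 2 probes was well above it on 1 Venus array and no other call was made, while 8 of the 10 podocyte markers, among them Wt1, Synpo and Podxl, had tested probes. Of the 16 tested podocyte marker probes, 2 were higher and 1 was lower with OASIS by over 2-fold (adjusted p under 0.1). The largest of these differences was in Wt1, whose probe A_55_P1953143 had a log2 fold change of 4.62 (adjusted p = 0.00216), while its probe A_55_P2719484 had -0.16 (adjusted p = 0.342). With Venus, A_55_P1953143 had intensities of 17 and 25, not far above the lowest signals well above background, which limits the size of its difference. The epithelial markers Cdh1 and Epcam were not well above background on any array, whereas Krt8 was on all 4 and Krt18 on both OASIS arrays, with log2 fold changes of 0.22 and 0.25 on the Krt8 probes (adjusted p = 0.372 and 0.396). Among tubular markers, 3 of 5 genes had tested probes. Aqp1 and the Cdh16 probe A_51_P287100 had intensities of 18042 to 32798 and 10059 to 13035. Podocyte marker probes were bright or dim: Actn4 A_51_P394788 had 27909 to 33880, Synpo A_51_P123676 9943 to 13511 and Podxl A_52_P380263 130 to 218. These Aqp1 and Cdh16 probes each had a log2 fold change of 0.08. Of the 5 Lrp2 probes, 2 were higher with OASIS by a log2 fold change of 1.62 and 1.68, and the others had -0.16 to 0.01. Tested probes were also held by 2 of 3 mesangial, 3 of 3 leukocyte and 1 of 4 endothelial marker genes. The part of marker levels in the differences below was not tested. The tested Creb3l1 probe gave a log2 fold change of -0.17 (adjusted p = 0.298), and whether the vector carries its target sequence is not given in the sources used here. The study also ran anti-OASIS immunoblots on podocytes 48 h after these vectors and describes the cells as overexpressing OASIS.

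Values are log2 intensities relative to the 75th percentile of the array, so 0 marks that percentile and a difference of 1 is 2-fold. The test covered the 31590 probes whose signal, in 1 group or both, stood well above background in each replicate, and differences are OASIS minus Venus with limma's standard error (SE) and a p adjusted over all tested probes. A probe was said to rise or fall when its fold was over 2 and its adjusted p under 0.1. Of the 26 member probes, 23 were tested, covering all 10 genes, and the other 3 were not well above background on any array. Past both limits were 3 of them, beside 8.36% of all tested probes. A single member probe rose, for Prkcz, and 2 fell, for Prkci and Crb3, where 5.89% and 2.47% of all tested probes did. At least 1 probe passed in 3 of the 10 genes, compared with 12.2% of the 16313 genes tested. All 3 were among the 6 member genes with at least 2 tested probes, and 16.5% of such genes on the array had a passing probe. The passing Prkcz and Crb3 probes were well above background in 1 group alone, and a filter on all 4 arrays left 1 gene. By the adjusted p alone, whatever the fold, 3 member probes were higher and 10 lower, beside 17% and 19.7% of all probes. Of the 6 member genes with at least 2 tested probes, 0 had probes past the adjusted p in both directions, as 6.55% of such genes on the array did. Both OASIS arrays lay below both Venus arrays in 15 of the 23 tested member probes, above them in 4, and overlapped them in 4, where 39.4% and 28.6% of all probes lay below and above. The median log2 fold change of the 23 was -0.32, against -0.07 for all tested probes.

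**Figure D1:**
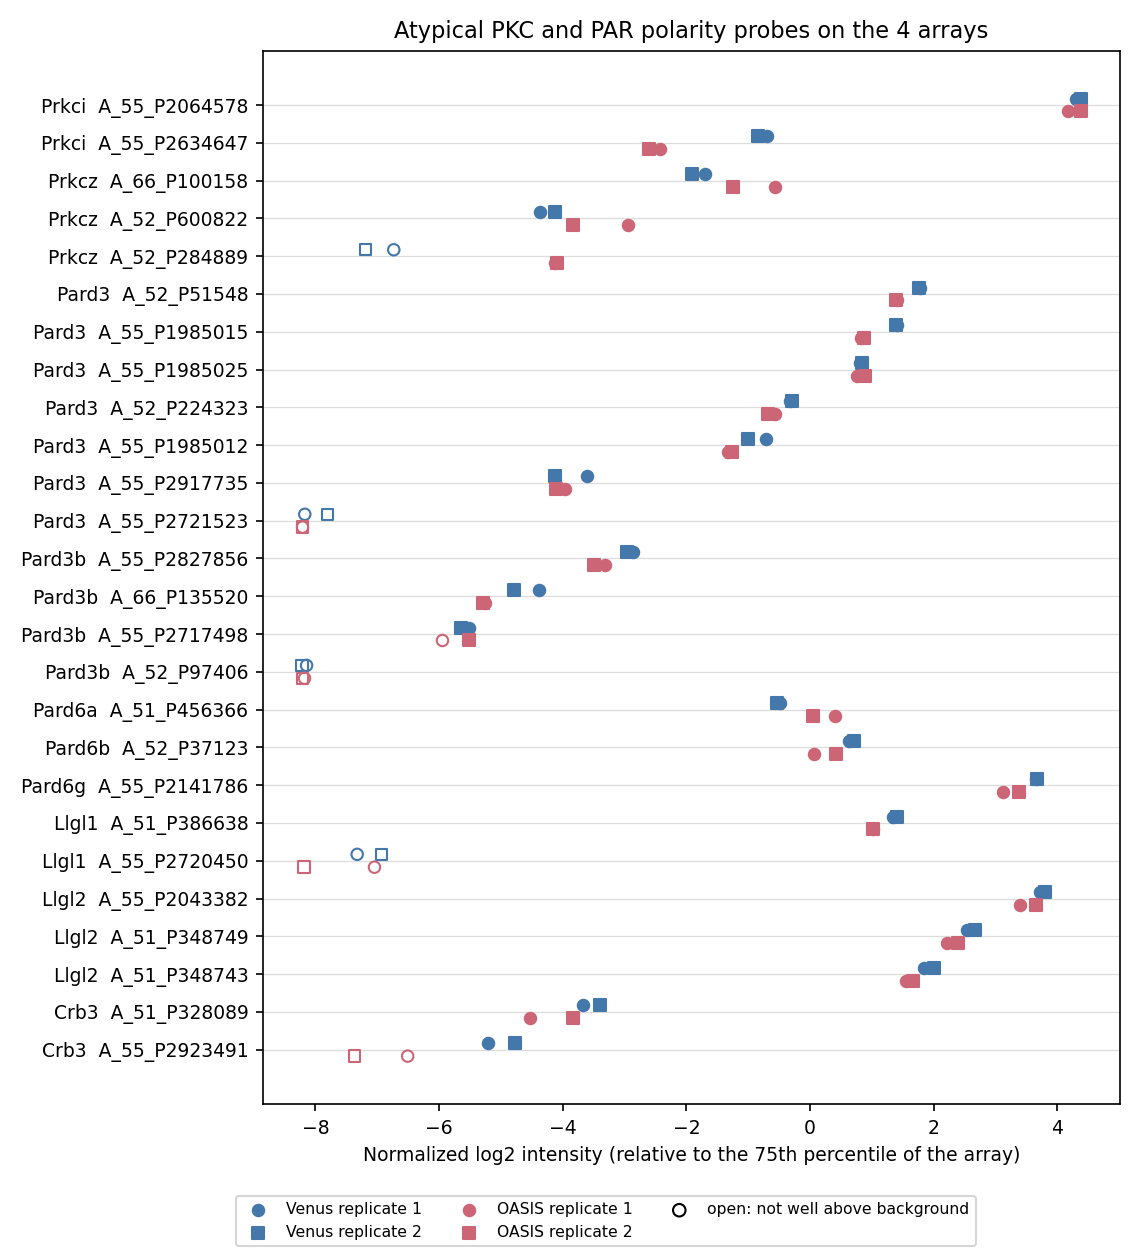
Normalized log2 intensity of each of the 26 member probes (rows) on the 4 arrays, with Venus in blue, OASIS in red, circles for replicate 1, squares for replicate 2 and open symbols for spots not well above background. The separated groups of Prkci A_55_P2634647 lie 1.58 log2 units apart, whereas the 4 arrays of Prkci A_55_P2064578 overlap.

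Prkci, in band 3qA3, encodes PKCι, the atypical PKC found in most epithelia. Its 2 probes, both annotated to the transcript NM_008857, gave different answers. Probe A_55_P2634647 read -0.70 and -0.85 with Venus, against -2.43 and -2.60 with OASIS. Both OASIS values lay well below both Venus values, and the group means were -0.77 ± 0.11 and -2.51 ± 0.12 (SD, n = 2 each). The log2 fold change was -1.74 ± 0.12 (SE, 95% interval -2.07 to -1.42), a 3.35-fold lower signal, with an adjusted p of 0.00468. Probe A_55_P2064578 read 4.31 and 4.38 with Venus and 4.17 and 4.38 with OASIS. The groups overlapped on this probe, and its log2 fold change was -0.07 ± 0.12 (SE, 95% interval -0.38 to 0.25, adjusted p = 0.721). All 4 arrays carried the highest detection score for both probes. RefSeq lists 1 curated transcript for Prkci.

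Prkcz, in band 4qE2, encodes PKCζ, the other atypical isoform. Its 3 probes all had higher values with OASIS. For each of them both OASIS arrays lay above both Venus arrays, an order that 28.6% of all tested probes had. Probe A_52_P284889 read -6.73 and -7.19 with Venus and -4.12 and -4.10 with OASIS. Neither Venus array held it well above background, so its difference is a bound. On the scanner's values this probe was at least 4.05-fold higher with OASIS. The adjusted p of 0.00375 is limma's for the fitted log2 fold change of 2.86 and not for the bound. The bound sets the OASIS mean against the lowest signal well above background on each Venus array. The measured means were -6.96 ± 0.33 and -4.11 ± 0.02 (SD, n = 2 each). With normexp background correction in place of the scanner's, the log2 fold change was 0.69, under the 2-fold limit.

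Probe A_66_P100158 for Prkcz read -1.70 and -1.91 with Venus and -0.57 and -1.24 with OASIS. The 2 OASIS values were 0.67 apart, and the log2 fold change was 0.90 ± 0.25 (SE, 95% interval 0.24 to 1.56, adjusted p = 0.0638), under the 2-fold limit. Probe A_52_P600822 read -4.37 and -4.12 with Venus and -2.94 and -3.84 with OASIS. Its log2 fold change was 0.85 ± 0.32 (SE, 95% interval 0.01 to 1.70), and its adjusted p of 0.12 missed the limit. On both of these probes OASIS replicate 1 read higher than OASIS replicate 2, and without replicate 2 both passed, at 1.23 and 1.30, while without OASIS replicate 1 they had 0.56 and 0.41 and did not. Their spots also carried a mark for an uneven local background, on 3 of 4 arrays for A_66_P100158 and on 4 of 4 for A_52_P600822. The part of that mark in the difference was not tested.

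Pard3, in band 8qE2, encodes the scaffold PAR-3. It had 7 probes, of which 6 were tested, and none passed the 2-fold limit. Values for A_55_P1985015 were 1.41 and 1.39 with Venus and 0.83 and 0.86 with OASIS. Replicates of this probe lay close together, and its log2 fold change was -0.55 ± 0.10 (SE, 95% interval -0.81 to -0.30, adjusted p = 0.0236). For A_52_P51548 the Venus arrays gave 1.78 and 1.76 and the OASIS arrays 1.41 and 1.38, a log2 fold change of -0.37 (adjusted p = 0.0553). Probes A_52_P224323 and A_55_P1985012 were also lower by the adjusted p alone, with log2 fold changes of -0.32 and -0.44. The remaining pair of tested Pard3 probes had overlapping groups. One of them, A_55_P1985025, which is annotated to NM_001122850 and not to the transcript of A_52_P51548, read 0.81 and 0.84 with Venus and 0.76 and 0.89 with OASIS (log2 fold change 0.00, 95% interval -0.28 to 0.28, adjusted p = 0.997). The other, A_55_P2917735, had a log2 fold change of -0.17 ± 0.20 (SE, adjusted p = 0.563). RefSeq lists 8 curated Pard3 transcripts.

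Pard3b, in band 1qC2, encodes a PAR-3 homologue that lacks binding to aPKC. Its probe A_55_P2827856 read -2.86 and -2.96 with Venus and -3.32 and -3.49 with OASIS, and A_66_P135520 read -4.39 and -4.79 against -5.26 and -5.29. Both were lower on both OASIS arrays, with log2 fold changes of -0.50 (adjusted p = 0.0439) and -0.69 (adjusted p = 0.0474), under the 2-fold limit. For A_55_P2717498 the groups overlapped, at -5.51 and -5.64 against -5.95 and -5.52, and 1 of the 2 OASIS arrays was well above background. Among the 9 tested probes of the PAR-3 genes, 6 were lower by the adjusted p alone, as were 19.7% of all tested probes.

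The 3 PAR-6 genes encode the adaptors that hold aPKC and Cdc42 together, and each had 1 probe. Pard6a, in band 8qD3, read -0.48 and -0.53 with Venus and 0.40 and 0.05 with OASIS. Both OASIS arrays were higher, and the log2 fold change was 0.74 ± 0.15 (SE, 95% interval 0.34 to 1.13, adjusted p = 0.0328), a 1.67-fold difference. Pard6b, in band 2qH3, read 0.62 and 0.71 with Venus and 0.06 and 0.42 with OASIS, with a log2 fold change of -0.42 ± 0.15 (SE) and an adjusted p of 0.114 that missed the limit. Pard6g, in band 18qE3, read 3.65 and 3.66 with Venus and 3.12 and 3.37 with OASIS. Its log2 fold change was -0.41 ± 0.13 (SE, adjusted p = 0.0826). Thus Pard6a and Pard6g passed the adjusted p alone in opposite directions, and none of the 3 reached 2-fold.

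Llgl1 and Llgl2, in bands 11qB2 and 11qE2, encode the Lgl proteins of the basolateral domain. All 4 of their tested probes were lower on both OASIS arrays than on both Venus arrays, by less than 2-fold, where 39.4% of all tested probes had this order. Of the 4, 3 read Llgl2. For Llgl1 the values were 1.35 and 1.41 with Venus and 1.01 and 1.03 with OASIS, a log2 fold change of -0.36 ± 0.10 (SE, adjusted p = 0.0624). The 3 Llgl2 probes had log2 fold changes of -0.23, -0.29 and -0.31, with adjusted p-values of 0.248, 0.146 and 0.119. On the Llgl2 probe A_55_P2043382, for example, the arrays read 3.71 and 3.80 against 3.40 and 3.65, so the nearest arrays of the groups were 0.06 apart. A second Llgl1 probe was not well above background on any array.

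Crb3, in band 17qD, encodes the small Crumbs protein of the apical membrane in mammalian epithelia. Both of its probes had lower values with OASIS. Probe A_55_P2923491, annotated to NM_001359814, read -5.20 and -4.77 with Venus and -6.51 and -7.37 with OASIS. Neither OASIS array held it well above background, which gives a bound of at least 2.23-fold lower on the scanner's values. The measured means were -4.99 ± 0.31 and -6.94 ± 0.61 (SD, n = 2 each). Their fitted log2 fold change of -1.95 had an adjusted p of 0.0218, which does not apply to the bound. With normexp background correction this log2 fold change was -0.34, under the 2-fold limit. Probe A_51_P328089, annotated to NM_177638, read -3.67 and -3.40 with Venus and -4.53 and -3.83 with OASIS. Its groups did not overlap, and its log2 fold change of -0.64 ± 0.27 (SE, 95% interval -1.34 to 0.06) had an adjusted p of 0.145. This value was -0.29 without OASIS replicate 1, -0.99 without OASIS replicate 2 and -0.24 with normexp.

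**Figure D2:**
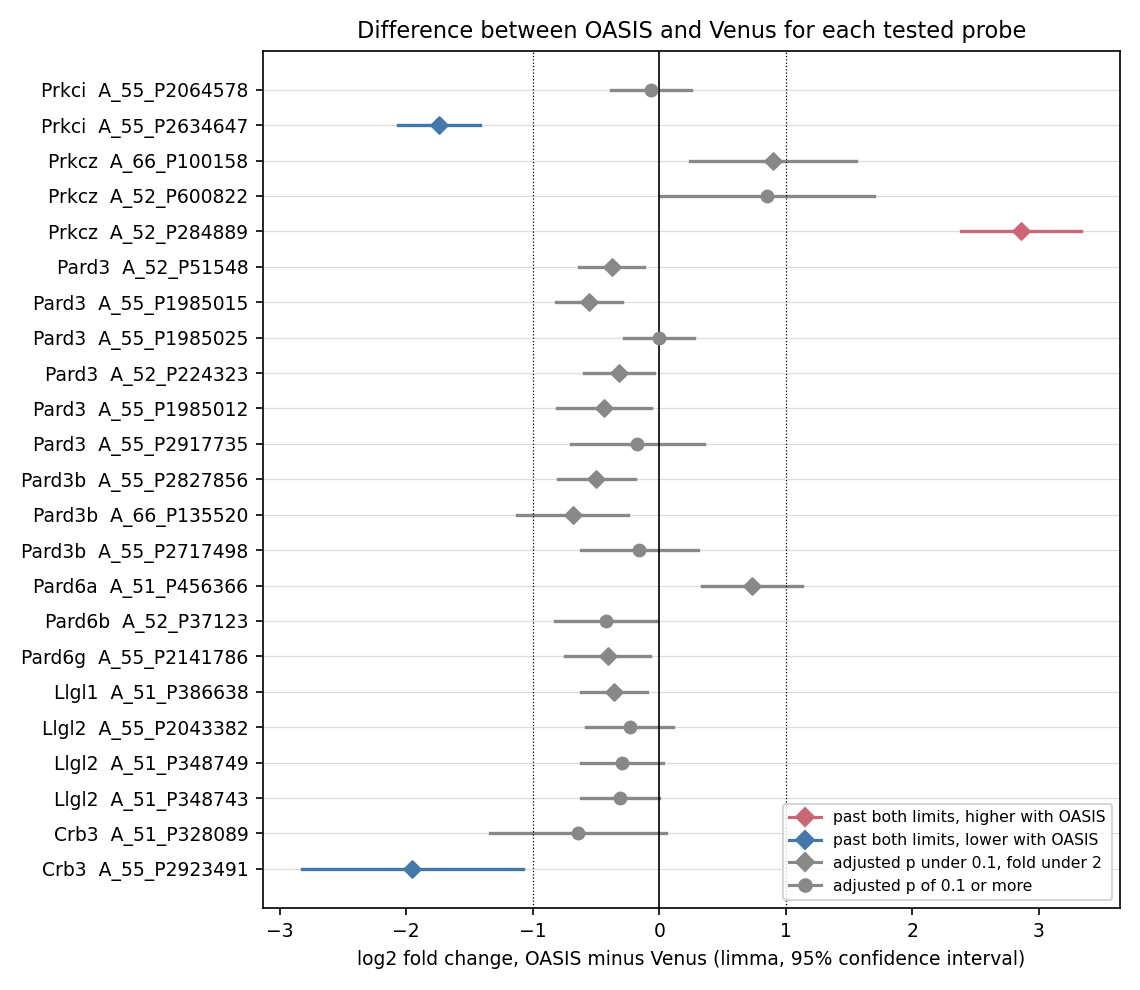
Log2 fold change, OASIS minus Venus, of the 23 tested member probes with its 95% interval from limma; dotted lines mark 2-fold in each direction. The Prkcz and Crb3 probes past both limits are drawn at their fitted values, though one of their groups was near background. The 3 probes past both limits belong to Prkcz (higher), Prkci and Crb3 (lower). Of the 23 points, 18 lie below 0, as do 18172 of all 31590 tested probes.

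Since probes of 1 gene gave different values, the difference between probes was itself tested. For every gene with at least 2 tested probes, each other probe was set within each array against the gene's brightest probe on average, and this within-array difference was compared between groups. Of 13 such pairs in 6 member genes, 3 pairs in 3 genes differed in response at an adjusted p under 0.1, beside 26.8% of the 10811 pairs on the array. For Prkci, A_55_P2634647 minus A_55_P2064578 was -5.00 and -5.22 with Venus and -6.60 and -6.98 with OASIS. The responses of the 2 Prkci probes thus differed by -1.68 ± 0.18 (SE, 95% interval -2.15 to -1.21, adjusted p = 0.0112). For Prkcz, A_52_P284889 and A_66_P100158 had a fitted difference of 1.96 ± 0.27 (SE, adjusted p = 0.0146). The first of them was near background on the Venus arrays, with its bound in place of its fitted value the difference was 1.12, and with normexp it was -0.06 (adjusted p = 0.854). The pair A_52_P600822 and A_66_P100158 of Prkcz differed by -0.05 ± 0.20 (SE, 95% interval -0.57 to 0.48, adjusted p = 0.916). In Pard3, A_55_P1985025 against A_52_P51548 differed by 0.38 ± 0.11 (SE, 95% interval 0.08 to 0.67, adjusted p = 0.0933). Without any 1 of the 4 arrays this Pard3 pair missed the limit, with adjusted p-values of 0.103 to 0.385, and it also did so when dim probes were not filtered (adjusted p = 0.196). The Prkci pair passed in each of these fits, with adjusted p-values of 0.028 to 0.0703. The other 4 Pard3 pairs and those of Pard3b and Llgl2 had adjusted p-values between 0.319 and 0.827. The Crb3 pair differed by -1.31 with an interval of -2.72 to 0.10 (adjusted p = 0.18), so a difference of that size was not resolved. When all tested probes of a gene were averaged instead, Prkci had a log2 fold change of -0.90 (adjusted p = 0.00815), under the 2-fold limit, Prkcz 1.54 (adjusted p = 0.0138) and Crb3 -1.30 (adjusted p = 0.0114). With the bounds in place of the fitted values of the probes near background, these means were 1.26 for Prkcz and -0.90 for Crb3, the latter under 2-fold.

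**Figure D3:**
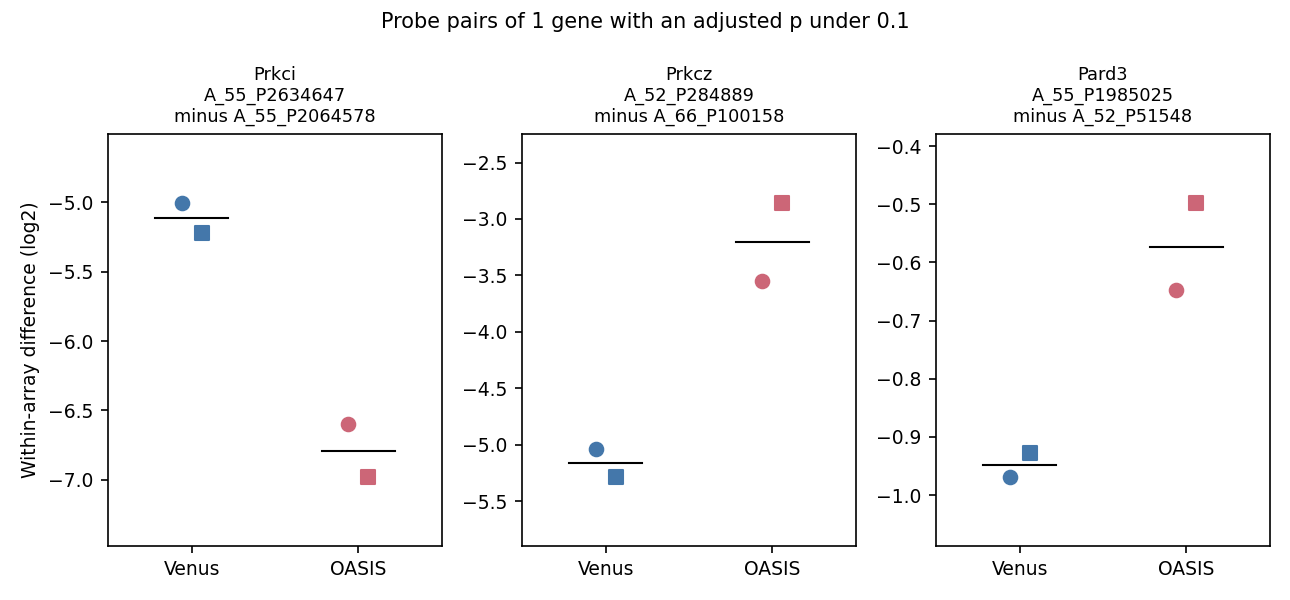
Within-array differences between probes of the same member gene on each array, in log2 units, for the 3 pairs with an adjusted p under 0.1, with Venus in blue, OASIS in red, circles and squares for replicates 1 and 2, bars at the group means and a separate axis range in each panel. For Prkci the 2 OASIS arrays lie at -6.60 and -6.98, below the Venus arrays at -5.00 and -5.22.

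The choice of genes did not use the Gene Ontology terms of the deposited table, but it took polarity genes, so shared terms follow from it. Of the 10 members, 8 carried bicellular tight junction, a term of 120 of 26893 genes on the array. The same 8 carried apical plasma membrane, a term of 306 genes. Llgl1 and Llgl2 were the members without them. Cell division was given to 6 members: Llgl2, Pard3, Pard3b and the 3 PAR-6 genes. The members also differed in brightness. With the tested probes divided into 3 equal bins by mean intensity, 8 member probes lay in the dimmest bin, 6 in the middle bin and 9 in the brightest. Probes past both limits numbered 2, 1 and 0 in these bins, beside 12%, 8.66% and 4.46% of all tested probes. The Prkcz and Crb3 probes that passed were in the dimmest bin and the Prkci probe in the middle one.

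Partners of the polarity complexes were described from a list of other polarity genes: 64 genes on the array, with 120 of 159 probes tested. In this list 7 probes rose and 3 fell, where 5.89% and 2.47% of all tested probes did, with a median log2 fold change of -0.19. With probes well above background on all 4 arrays alone, the counts were 6 and 2. Among the core partners, Cdc42, the small GTPase that activates the PAR-6 complex, had probes in opposite directions. The dim probe A_52_P259214, with intensities of 69 to 189, rose by 1.08 ± 0.18 (SE, adjusted p = 0.0209). The bright probe A_52_P229728, at 10042 to 16145, had a log2 fold change of -0.63 ± 0.12 (SE, adjusted p = 0.0257). The responses of these Cdc42 probes differed by 1.70 ± 0.23 (SE, adjusted p = 0.0146). Mpp5, which encodes PALS1, the adaptor between Crumbs and PAR-6, had 0.33 (adjusted p = 0.0925). Scrib, the basolateral scaffold, had -0.28 (adjusted p = 0.152), and its partner Dlg1 had -0.56, -0.41 and 0.04 on 3 probes.

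Lin7b, an adaptor of the Crumbs complex, rose most among the partners well above background in both groups. It read -5.63 and -5.87 with Venus and -3.32 and -3.53 with OASIS, a log2 fold change of 2.33 ± 0.14 (SE, adjusted p = 0.00361). The Venus values of Lin7b lay near the lowest signals well above background on those arrays (-6.10 and -6.15), which limits the size of this difference. Numbl, of the Numb family of aPKC substrates, rose by 1.01 on one probe (adjusted p = 0.00833) and had 0.95 on the other (adjusted p = 0.00967). Several of the other partners had probes with different values. Stxbp5, which encodes the Lgl-related tomosyn, had 1.20 on A_55_P2911650 (adjusted p = 0.00636) and -0.77 on A_51_P248962 (adjusted p = 0.0161). Tiam2, an exchange factor for Rac, had 1.08 (adjusted p = 0.0111) and 0.14 (adjusted p = 0.541). Rock2, a kinase of the actin cytoskeleton, had 1.02 on A_65_P19458 (adjusted p = 0.0111), 0.57 and 0.01 on 2 other probes and -0.30 on A_51_P320444 (adjusted p = 0.0948). Mark1, a PAR-1 kinase, was at least 1.58-fold higher on A_55_P2814880 (adjusted p = 0.019 for the fitted 1.28). This probe was not well above background with Venus, and the Mark1 probe A_55_P2741033 had -0.59 (adjusted p = 0.0338). Pawr, whose product binds atypical PKC and inhibits it, fell on A_52_P560889, with a log2 fold change of -1.17 ± 0.17 (SE, adjusted p = 0.016), and had -0.17 on A_55_P2028015 (adjusted p = 0.462). Cgn, which encodes the tight junction protein cingulin, fell on its tested probe (-1.04, adjusted p = 0.0492). Nectin3, an adhesion molecule, was at least 1.77-fold lower on A_55_P2095508 (adjusted p = 0.0741 for the fitted -1.45). Neither OASIS array held this probe well above background, and the 3 other Nectin3 probes had -0.16 to -0.63.

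Against the other protein kinase C genes and their PKN and PKD relatives, 18 of 30 probes were tested, in 10 of 13 genes. A single probe passed both limits, for Prkd1, which fell (-1.04 ± 0.24, SE, adjusted p = 0.0425), beside 8.36% of all tested probes. By the adjusted p alone 9 were lower and 1 was higher, beside 19.7% and 17% of all tested probes, and the median log2 fold change of the 18 was -0.38. The probe that was higher, A_66_P105791 for the conventional isoform Prkca, had 0.87 (adjusted p = 0.0101), while the other Prkca probe, A_55_P1961436, had -0.03 (adjusted p = 0.889). No difference between the atypical isoforms and these kinases was tested.

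**Figure D4:**
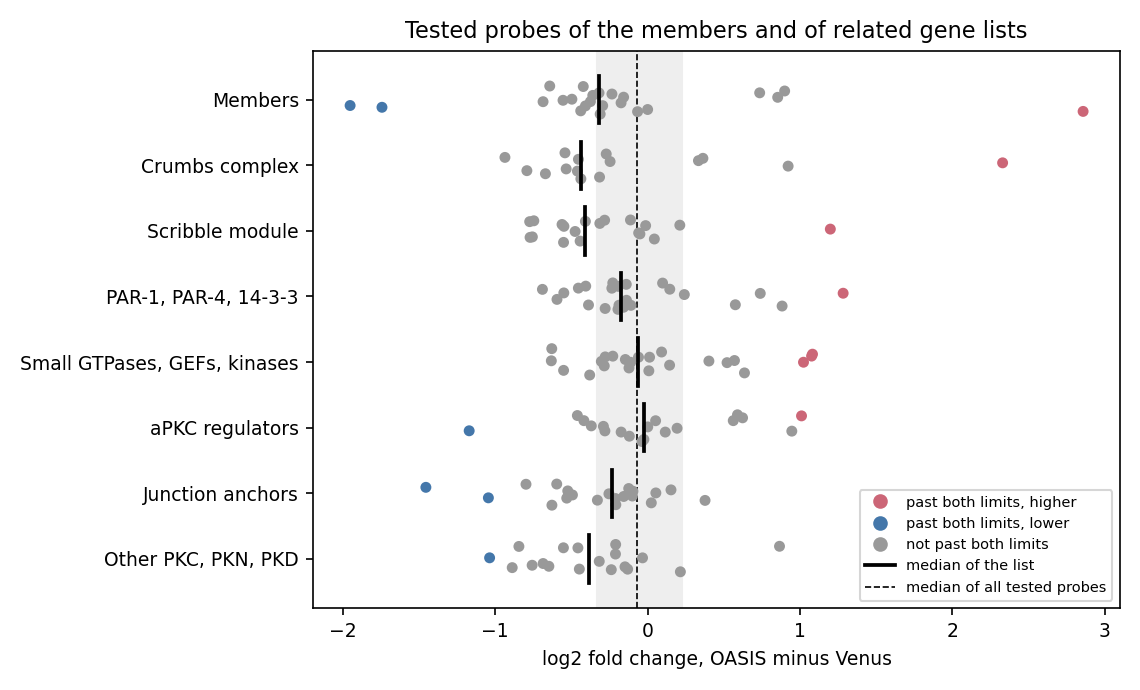
Log2 fold change, OASIS minus Venus, of each tested probe of the members, the polarity partner lists and the other PKC, PKN and PKD genes, with a black bar at the median of each list, a dashed line at the median of all tested probes (-0.07) and grey shading over their middle quartiles (-0.33 to 0.22). The list medians run from -0.44 for the Crumbs complex to -0.02 for the aPKC regulators, with the members at -0.32.

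The genes with the profile nearest to each Prkci probe were taken by Euclidean distance over the 4 arrays, after each probe had been centred on its own mean. For A_55_P2634647 they were Cep85l, Pxdn and Shroom2, at distances of 0.03, 0.09 and 0.09 log2 units, and the log2 fold changes of Cep85l and Shroom2 were -1.74 and -1.78. The Pxdn probe was not well above background with OASIS, so its distance rests on values near background and its difference is a bound, at least 1.28-fold lower. Shroom2, for example, read 1.95 and 1.91 with Venus and 0.24 and 0.06 with OASIS. For A_55_P2064578 the nearest were Acot9, Gtse1 and Rprd2, with log2 fold changes of -0.07, -0.06 and -0.05. These distances describe 4 arrays and carry no test.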

How the data were processed

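Total RNA of 2 Venus and 2 OASIS samples was labelled with Cy3 and hybridised by the authors to Agilent 1-colour mouse arrays, which were read with Agilent Feature Extraction 12.1.0.3. The deposited scanner output gives a background-corrected intensity per spot and marks for outliers and for signals well above background. The authors also deposited a second set of intensities scaled by 1 factor per array (0.663 to 0.698), with detection scores (the highest being the surest detection) and gene symbols, bands and Gene Ontology terms, from which the members were matched. All 10 were found in the RefSeq gene table used here. A genome of matching build was not used here, so coordinates, promoters and probe sequences are not given, and the planned description of promoter motifs was not run.

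After removal of control and outlier spots, log2 of the corrected intensity minus the 75th percentile of the array was taken, and replicate spots were averaged by probe. A probe counted as well above background when at least 0.5 of its spots did. Every tested probe was fitted in limma 3.58.1 (lmFit, eBayes; R 4.3.3; data.table version 1.17.8), with Benjamini-Hochberg adjustment. The threshold is that of the study's methods, which give it without a test for the arrays and name Student's t-test in general among tests for 2 groups. The fit was tested on simulated data. For a bound, the dimmer group's arrays each took whichever was larger, the probe's value or the lowest signal called well above background, and their mean was set against that of the brighter group. A spot without the call can still read above that lowest signal, as Pard3b A_55_P2717498 did on OASIS replicate 1 (-5.95 against -6.13). A bound therefore holds only for the scanner's values and this floor.

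The members and lists were chosen with earlier results of these data known. All members were named, with core partners, listed genes past the threshold (at most 4 in each direction and 2 bounds per list) and the 3 nearest neighbours of each Prkci probe. The Prkca values, further probes of partners past the threshold, the marker genes given with values and Creb3l1 were outside this rule and were chosen after values had been seen. Some genes of the lists are not reported here. With 2 arrays a group the number of arrays limits the precision, and the smallest p that an exact permutation test could give is 0.333. Nothing says that samples came from separate cultures, so the p-values measure the spread between samples, which may be technical. Alternatives were normexp background correction (offset 50, on median spot signals), quantile normalization, median scaling, the authors' scaled values, 2 other filters on dim probes, outlier spots kept, an intensity trend, an adjusted p under 0.05, no limit on the fold, the methods' t-test, omission of each array and the replicate number as a block. A filter on the highest detection score was added after the data had been seen. With 1 slide, no slide block could be fitted.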

Additional observations from a re-analysis of the deposited data

How the results depend on the processing

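The fall of Prkci A_55_P2634647 was past the threshold in 17 of 17 alternatives, with log2 fold changes of -1.83 to -1.40 and adjusted p-values of 0.000179 to 0.0953. Prkcz A_52_P284889 and Crb3 A_55_P2923491 were each past it in 14 of 16. The exceptions were normexp, which compresses dim signals (0.69 and -0.34), and the methods' t-test (adjusted p = 0.1 and 0.178), and a filter on all 4 arrays removed both probes. With normexp, 1222 probes were called in place of 2641, with 0 member probes higher and 1 lower in 1 gene, 1 partner higher and 1 lower, 0 of the PKC family and 5 member pairs in place of 3. The filter on all 4 arrays left 0 members higher and 1 lower, in 1 gene. Without a filter, 1 partner was called lower and 0 of the PKC family. Of the 3 member pairs, 2 were called without a filter, which ended the Pard3 call, and with the filter on all 4 arrays or on the highest detection score, which removed the Prkcz pair. The methods' t-test called 726 probes, 0 members higher and 1 lower in 1 gene, 3 partners higher and 0 lower, and 0 of the PKC family; at an unadjusted p under 0.05 with the same fold it had 1 member higher, 1 lower, 1 partner lower and 0 of the PKC family. At an unadjusted p, limma with normexp had 0 members higher and 0 of the PKC family, limma with the filter on all 4 arrays 0 members higher, and limma without a filter 1 of the PKC family. With no limit on the fold, 11610 probes passed, 3 members higher and 10 lower in 8 genes, 19 partners higher and 37 lower, and 10 of the PKC family. The cause was not tested where these counts differ.

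Leaving out 1 array gave 2528 to 3287 called probes, 1 to 3 members higher (3 without OASIS replicate 2, which added the 2 other Prkcz probes), 2 lower, 3 genes, 2 to 4 pairs, 5 to 7 partners higher, 1 to 4 lower (1 without Venus replicate 1), and 0 to 2 of the PKC family (0 without Venus replicate 1, 2 without Venus replicate 2). Directions turned in member probes that had not passed. Pard3 A_55_P1985025 had -0.020 with quantile, -0.021 with median, -0.013 with the authors' scaling and -0.0021 with outlier spots kept, and -0.061 to 0.063 without 1 array. Pard3b A_55_P2717498 had 0.058 with normexp and -0.37 to 0.055 without 1 array, Prkci A_55_P2064578 -0.17 to 0.036, and Pard3 A_55_P2917735 -0.43 to 0.079. Of 293 comparisons of the 23 member probes on all 4 arrays, 274 kept direction and side of the threshold. Where only the filter, the fit or the threshold was changed, the log2 fold change was the same by construction. Direction could not turn there, so this count says little about direction.

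With the replicate number as a block, 2702 probes, 1 member higher, 2 lower and 3 pairs were called, and no other count changed by over 1.5 times. Deviations of Venus 1 and OASIS 1 from their group means correlated at 0.259 over probes, but with 2 pairs the samples share only a number, so the block is not taken as a pairing. Probes near background limit the Prkcz and Crb3 values, which are bounds.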
